A study of Mus musculus with 26 samples.

Results

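The 7 genes described here encode transcription factors of the endoderm: Gata4, Gata6, Sox17, Sox7, Foxa2, Hnf4a and Foxq1. They were chosen by name, with earlier results of these data known. Their rows were read in each of 6 expression tables of mouse embryonic stem cells. All 7 were among the 25239 genes of both untreated tables, and they were listed in the tables of treated cells as well, except that Hnf4a was not among the 13482 genes of the SB431542 table. The 26 RNA-seq libraries came from cells of the C57BL/6 strain, per the labels, grown in serum medium on gelatin, and were either wild type (WT) or knocked out for Hmces (HMCES-KO). HMCES is a DNA-binding protein known for linking itself to abasic sites. The count table held 2 untreated WT libraries and 2 each of the knockout lines it names KO7 and KO8. A second untreated table held 2 WT and 2 HMCES-KO libraries, given as TPM, in which the reads of a gene are divided by its length and every library sums to 1000000. In 4 further TPM tables the cells had received 1 agent for 2 h, and each table held 2 WT libraries and 1 library each of the lines labelled HMCES-KO1 and HMCES-KO2. The agents were activin A at 50 ng/ml, which activates the Nodal/activin receptors, and SB431542 at 10 µM, which blocks them. The BMP receptors were activated by BMP4 at 10 ng/ml or blocked by LDN193189 at 50 nM. Which of KO7 and KO8 is KO1 or KO2, whether each line is a single clone, how the knockout was made and which line gave the second untreated table are not given in the sources used here.

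Primitive endoderm is the extraembryonic lineage that separates from the pluripotent epiblast in the blastocyst, and a few cells of serum cultures of embryonic stem cells turn on its genes. GATA6 acts early in that choice, GATA4, SOX17 and SOX7 follow as the lineage matures, and HNF4A and FOXA2 act in the visceral endoderm that forms from it. SOX17 and FOXA2 also mark the definitive endoderm of the gastrulating embryo, whose formation depends on Nodal signalling. FOXQ1 is a forkhead factor best known from the hair shaft and the stomach epithelium.

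The targeted gene and the markers of the cells were checked first. Hmces RNA in each HMCES-KO library was below both WT libraries of its table, and the means of the lines ranged from 21.6% to 64.1% of the WT mean. Transcript level does not tell how much protein remained. The pluripotency genes Pou5f1 and Nanog averaged 4380 and 1170 TPM in the WT libraries of the count table, so the defining markers of embryonic stem cells were present. Total reads per library, in units of 1000000, ran from 9.57 to 13.5 in the count table. Reads recovered from TPM came to 8.52 to 10.0 in the untreated and 4.07 to 5.46 in the treated tables. The WT pair of the count table differed most among the replicate pairs, with a chi-square of 4.93 per gene against 1.62 in KO7 and 1.63 in KO8.

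Against that background the 7 factors were rare transcripts. Per length, the order of their mean levels in the WT libraries of the count table was Gata4 (13.2 TPM), Foxq1 (8.65), Gata6 (8.58), Sox7 (5.04), Sox17 (2.82), Hnf4a (2.71) and Foxa2 (2.31). The WT libraries of Foxq1 and Gata6 overlapped, as did those of Sox17 and Hnf4a. Gata4 stood at percentile 50.0 of the 17517 detected genes and Foxa2 at percentile 29.9. Because the RNA is from bulk cultures, fewer cells expressing a factor and less of its RNA per cell cannot be told apart.

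Without treatment, the RNA of these factors in the count table was lower in both knockout lines than in WT, and more so in KO8. In KO7, 6 of the 7 fell, and in KO8 all 7 fell (edgeR quasi-likelihood test, adjusted p under 0.05), against 19.2% of the 13475 tested genes called lower in KO7 and 19.7% in KO8. The median log2 fold change over the 7 factors was -1.31 in KO7 and -2.27 in KO8, beside medians over all tested genes of 0.00 and -0.01. All 7 factors passed the filter on low counts, which the libraries of 1 group alone, such as WT, can meet. Because the factors were chosen with earlier results of these data known, setting their counts beside these shares is a description and not an independent test. The comparisons of KO7 and KO8 share the same WT libraries, so they are not independent of each other.

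**Figure D1:**
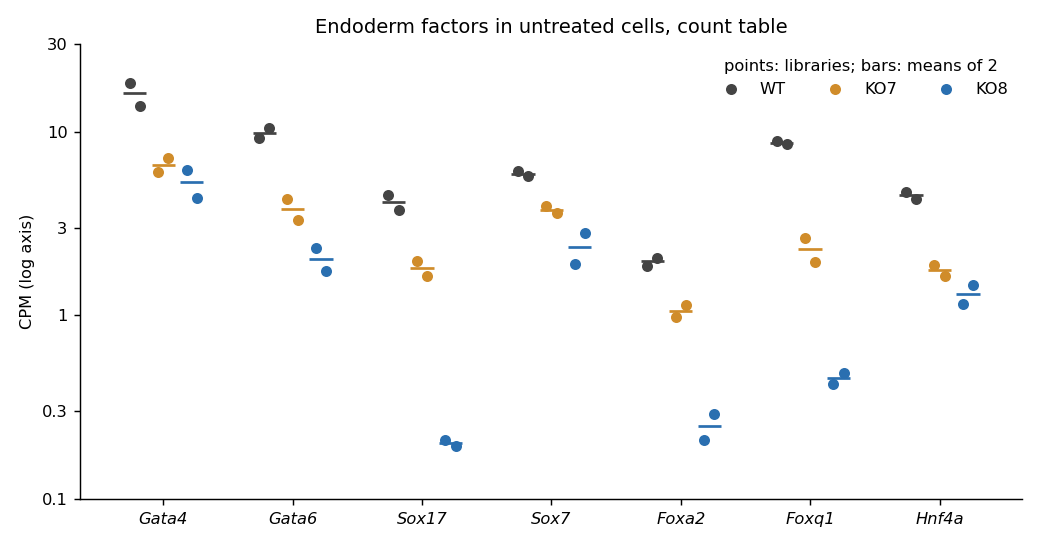
Counts scaled to 1000000 per library (CPM, log axis) of the 7 factors in the 6 untreated libraries of the count table; points are libraries and bars are means of 2. The WT points lie above all KO7 and KO8 points for each gene, and Sox17, Foxq1 and Foxa2 in KO8 lie below 0.5 CPM. The share of all genes with such a separation was not computed for these libraries.

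Gata6 and Gata4 encode zinc finger factors that bind the same DNA core. Gata6 (mm10 chromosome 18, 11052510 to 11085635, plus strand) had 9.25 and 10.4 CPM in the WT libraries, 4.30 and 3.29 in KO7, and 2.32 and 1.75 in KO8. The 3 groups did not overlap and stood in the order WT, KO7, KO8. Gata6 fell by 1.35 ± 0.22 on the log2 scale in KO7 (edgeR adjusted p = 6.6e-05) and fell by 2.27 ± 0.25 in KO8 (7.9e-07). Its antisense gene Gata6os had 0 to 3 reads per library, and no strand setting of the counting is given, so reads from the overlap could not be assigned to a strand.

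Gata4 (chromosome 14, 63198914 to 63245271, minus strand) had 18.5 and 13.75 CPM in WT, 6.04 and 7.20 in KO7, and 6.21 and 4.36 in KO8. Both lines lay below WT, and they overlapped each other. Gata4 fell by 1.31 ± 0.19 in KO7 (edgeR adjusted p = 2.1e-05) and fell by 1.62 ± 0.20 in KO8 (3.4e-06).

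Sox17 and Sox7 encode related HMG-box factors of the SOX F group, which also act in blood vessels. Sox17 (chromosome 1, 4490928 to 4497354, minus strand) had 56 and 38 reads in WT, 26 and 16 in KO7, and only 2 and 2 in KO8. Pooled over the libraries and corrected for depth, KO8 held 4.84% of the WT level, with an exact 95% interval of 1.29% to 12.8%, and KO7 held 43.8% (29.7% to 63.6%). These intervals cover counting error only. Sox17 fell by 1.19 ± 0.31 in KO7 (edgeR adjusted p = 0.0045) and fell by 4.29 ± 0.49 in KO8 (1.2e-06).

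Sox7 (chromosome 14, 63943706 to 63950732, plus strand) had 6.08 and 5.70 CPM in WT, 3.93 and 3.60 in KO7, and 1.895 and 2.81 in KO8. It had the smallest decrease of the 7 factors in each line, with groups that did not overlap. Sox7 fell by 0.64 ± 0.24 in KO7 (edgeR adjusted p = 0.041) and fell by 1.31 ± 0.27 in KO8 (0.00071). Sox7 and Gata4 lie on the same chromosome, 698434 bases apart with 7 genes of the count table between them.

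The forkhead gene Foxq1 (chromosome 13, 31558170 to 31560974, plus strand) had 109 and 87 reads in WT, 35 and 19 in KO7, and 4 and 5 in KO8. Its depth-corrected level was 27.0% of WT in KO7 (exact 95% counting interval 19.6% to 36.7%) and 5.22% in KO8 (2.35% to 10.1%). Foxq1 fell by 1.89 ± 0.25 in KO7 (edgeR adjusted p = 5.4e-06) and fell by 4.23 ± 0.35 in KO8 (1.6e-08). It had the largest decrease of the 7 factors in KO7.

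Foxa2 (chromosome 2, 148042877 to 148046969, minus strand), a forkhead factor that can bind closed chromatin, was the rarest of the 7, with 23 and 21 reads in WT, 13 and 11 in KO7, and 2 and 3 in KO8. The groups did not overlap. In KO8 Foxa2 fell by 2.90 ± 0.55 (edgeR adjusted p = 0.00037). In KO7 its log2 difference of -0.90 ± 0.40 did not pass the test (edgeR adjusted p = 0.082).

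Hnf4a (chromosome 2, 163506857 to 163572907, plus strand), a nuclear receptor of visceral endoderm and liver, had 58 and 44 reads in WT, 25 and 16 in KO7, and 11 and 15 in KO8. Both lines lay below WT. Hnf4a fell by 1.34 ± 0.30 in KO7 (edgeR adjusted p = 0.0013) and fell by 1.78 ± 0.32 in KO8 (0.00024). Its antisense gene Hnf4aos had 0 reads in the count table.

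Several of these calls rested on few reads. In KO7, Sox7 was not called with DESeq2 (adjusted p = 0.26), nor by edgeR without KO7 replicate 1 (0.13), KO7 replicate 2 (0.18) or WT replicate 1 (0.13), and Sox17 was not called with DESeq2 (0.096) or by edgeR without KO7 replicate 2 (0.055). When the 4 HMCES-KO libraries were pooled in 1 group, a choice made after seeing the data, edgeR did not call Sox17 (adjusted p = 0.094), Sox7 (0.071) or Foxa2 (0.11).

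Promoter sequence from the RefSeq promoter table (GRCm38.p6) was read for 2 of the 7 factors, Foxa2 and Hnf4a, and not for the others. It was searched on both strands, over the 250 bases before each annotated start, for 6 short motifs. AGATAA is the core bound by GATA factors. ACAATG is the core bound by SOX factors. TGTTTAC is the core bound by forkhead factors. CAGAC is the short box bound by SMAD3 and SMAD4. TATAAA is the core promoter element of that name. CCAAT is the element bound by the factor NF-Y. Shown are the windows with a GATA core, since GATA factors are among the genes that fell, and the window at the most upstream start of Foxa2 for comparison. Each is written 5′ to 3′ on the strand of the gene, with every match in capitals.
Foxa2, inner start, chr2:148045465-148045714, minus strand: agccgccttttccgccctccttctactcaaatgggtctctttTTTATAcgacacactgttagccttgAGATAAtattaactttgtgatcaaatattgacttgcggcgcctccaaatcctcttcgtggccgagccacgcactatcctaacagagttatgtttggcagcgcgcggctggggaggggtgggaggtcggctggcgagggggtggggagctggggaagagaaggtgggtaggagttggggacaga
Foxa2, most upstream start, chr2:148046970-148047219, minus strand: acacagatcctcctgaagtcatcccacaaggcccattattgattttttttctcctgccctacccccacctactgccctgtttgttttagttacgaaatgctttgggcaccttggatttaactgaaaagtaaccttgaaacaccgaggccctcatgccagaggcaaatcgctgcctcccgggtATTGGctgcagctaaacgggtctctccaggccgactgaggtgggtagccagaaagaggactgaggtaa
Hnf4a, most upstream start, chr2:163506607-163506856, plus strand: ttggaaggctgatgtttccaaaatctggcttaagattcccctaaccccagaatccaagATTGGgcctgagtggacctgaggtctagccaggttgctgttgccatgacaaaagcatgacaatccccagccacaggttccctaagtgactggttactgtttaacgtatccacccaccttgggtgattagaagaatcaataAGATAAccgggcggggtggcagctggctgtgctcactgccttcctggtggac
The GATA core began 183 bases before the inner Foxa2 start and 52 bases before the upstream Hnf4a start. In the inner Foxa2 window the other capitals are a TATAAA match on the opposite strand, and in the remaining windows they are matches of the element of NF-Y on the opposite strand. No 2 matches overlapped, and none of the 5 windows of these genes held the SOX core, forkhead core or SMAD box. Over all 32851 promoter windows of the same length, 9.99% held the GATA core, 10.7% the SOX core, 3.17% the forkhead core, 42.2% the SMAD box, 12.4% the TATAAA element and 33.8% the element of NF-Y. These matches describe the letters of the windows, and binding was not measured.

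The lines also differed from each other. Of the 7 factors 4 were lower in KO8 than in KO7, where 14.3% of the tested genes were called lower, and 0 were called higher, against 13.9% of genes. Sox17 differed by -3.10 ± 0.58 (edgeR adjusted p = 0.00035), Foxq1 by -2.34 ± 0.44 (0.00042), Foxa2 by -2.0 ± 0.63 (0.020) and Gata6 by -0.93 ± 0.29 (0.022). The log2 differences of Gata4 (-0.32 ± 0.23), Hnf4a (-0.44 ± 0.38) and Sox7 (-0.67 ± 0.29) did not pass the test, with edgeR adjusted p of 0.34, 0.43 and 0.089. With DESeq2 the calls of Foxa2 (adjusted p = 0.12) and Gata6 (0.10) were lost. With edgeR, Foxa2 was not called without either library of KO7 or KO8 (0.082 to 0.15), and Gata6 was not called without KO7 replicate 1 (0.23) or KO8 replicate 2 (0.19).

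**Figure D2:**
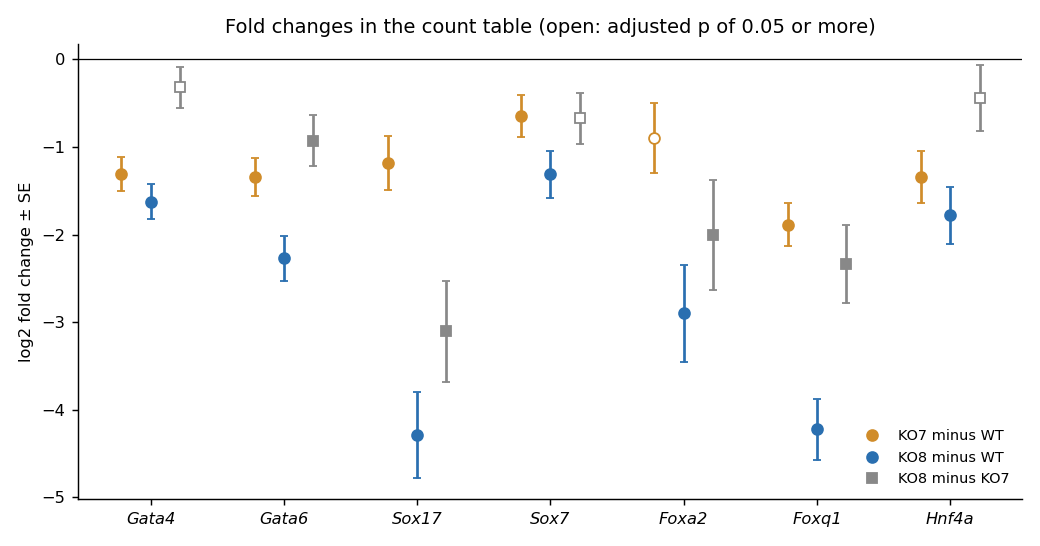
Log2 fold changes with standard errors of the 7 factors in the count table, for KO7 minus WT, KO8 minus WT and KO8 minus KO7 (edgeR; open symbols did not pass the test). The values for KO8 minus WT lie between -4.29 and -1.31, below those for KO7 minus WT for each gene.

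Other genes of the endoderm program were read from lists. Proteins of the primitive and visceral endoderm had 17 of 23 members tested, of which 12 fell and 2 rose in KO7 and 16 fell and 1 rose in KO8. Over all tested genes 19.2% fell and 19% rose in KO7, and 19.7% fell and 19.3% rose in KO8. Listed genes too could meet the filter on low counts through WT alone. The list medians were -1.05 and -1.67. Pdgfra, the receptor that marks primitive endoderm, fell by 1.05 ± 0.29 in KO7 (edgeR adjusted p = 0.0073) and fell by 3.25 ± 0.41 in KO8 (3.5e-06). Amn, the partner of cubilin at the cell surface, fell by 2.10 ± 0.35 in KO7 (edgeR adjusted p = 8.7e-05) and fell by 2.98 ± 0.41 in KO8 (1.1e-05). It had 4.79 and 4.12 CPM in WT, 1.28 and 0.72 in KO7, and 0.632 and 0.485 in KO8. Amn thus met the filter on low counts through its WT libraries. Apoe, a lipid carrier also made by many other cells, rose by 0.23 ± 0.05 in KO7 (edgeR adjusted p = 0.0013) and by 0.28 ± 0.05 in KO8 (0.00023). The summed level of the list moved less, from 1850 to 1890 TPM in WT to 1710 to 1780 in KO7 and 1660 to 1700 in KO8.

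The remaining endoderm transcription factors did not follow a single direction. Of 12 listed, 9 were tested, and 3 fell and 1 rose in KO7, while 2 fell and 2 rose in KO8. Beside these counts, 19.2% of all tested genes fell and 19% rose in KO7, and 19.7% fell and 19.3% rose in KO8. Zfpm1, a cofactor that binds GATA proteins, fell by 0.76 ± 0.16 in KO7 (edgeR adjusted p = 0.00061) and fell by 0.55 ± 0.15 in KO8 (0.0082). Prdm1, a repressor used in endoderm and in germ cells, rose by 0.66 ± 0.16 in KO7 (edgeR adjusted p = 0.0021) and by 1.08 ± 0.15 in KO8 (1.4e-05). Otx2 fell by 0.35 ± 0.11 in KO7 (edgeR adjusted p = 0.021) and rose by 0.40 ± 0.11 in KO8 (0.0069). Eomes and Mixl1, which act upstream in definitive endoderm, were called in neither line. Among 10 paralogues from the same protein families, 5 were tested, none was called in KO7 and 1, Foxh1, the forkhead partner of SMAD2 and SMAD3, rose in KO8 (0.46 ± 0.07, edgeR adjusted p = 5.4e-05).

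The FGF-ERK arm, which drives the choice of primitive endoderm in the blastocyst, had all 10 members tested, with 1 higher and 2 lower in KO7 and 3 higher and 2 lower in KO8, and list medians of 0.01 and 0.02. Its target Etv4 fell by 0.52 ± 0.06 in KO7 (edgeR adjusted p = 3.1e-06) and fell by 0.54 ± 0.07 in KO8 (2.3e-06). Another target, Etv5, rose by 0.20 ± 0.05 in KO7 (edgeR adjusted p = 0.0047) and by 0.17 ± 0.05 in KO8 (0.014). Of the 10 pluripotency factors, 5 rose and 2 fell in KO7, and 2 rose and 3 fell in KO8. As background for both lists, 19.2% of all tested genes fell and 19% rose in KO7, and 19.7% fell and 19.3% rose in KO8. Klf4, a factor of naive pluripotency, fell by 0.35 ± 0.05 in KO7 (edgeR adjusted p = 2.2e-05) and fell by 0.76 ± 0.05 in KO8 (1.1e-09).

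**Figure D3:**
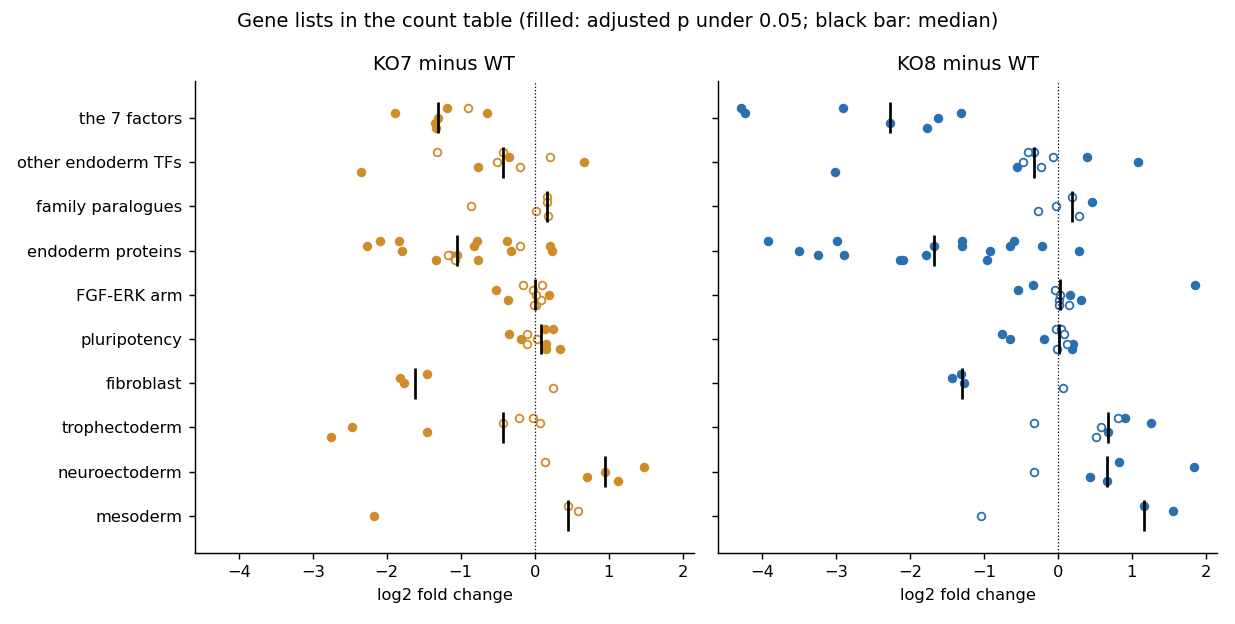
Log2 fold changes of the tested genes of each list in KO7 and KO8 of the count table (filled points passed the test with edgeR, black bars are list medians). The 7 factors and the endoderm proteins have medians below -1 in both lines, and the FGF-ERK and pluripotency lists have medians near 0.

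Markers of other cell types moved with these groups. For comparison, 19.2% of all tested genes fell and 19% rose in KO7, and 19.7% fell and 19.3% rose in KO8. Of 10 fibroblast markers, which would show feeder cells, 4 were tested and 3 fell in each line, and their summed level was 73.5 to 73.6 TPM in WT, 28.3 to 32.1 in KO7 and 35 to 38.1 in KO8, with Lum and Postn at 0 reads in every library of the count table. Neuroectoderm markers rose in 4 of 5 tested cases in each line, with summed levels of 175 to 191 TPM in WT, 364 to 380 in KO7 and 265 to 287 in KO8. Trophectoderm markers had 3 of 7 lower in KO7 (84.5 to 85.9 TPM in WT, 68.9 to 73.2 in KO7) and 3 of 7 higher in KO8 (168 to 171 TPM). Mesoderm markers had 1 of 3 lower in KO7 and 2 of 3 higher in KO8, with sums of 5.81 to 6.90 TPM in WT, 3.65 to 3.72 in KO7 and 5.21 to 6.96 in KO8. Their part in the levels of the 7 factors was not tested.

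Over the 10 untreated libraries of both tables, each centred on the WT mean of its table, the profiles of the factors resembled one another. The Pearson r of a factor with the mean of the other 6 ran from 0.904 for Gata4 to 0.998 for Foxq1. Among 13020 other genes, the profiles most like the mean of the factors were those of Cubn (r = 0.996), Col4a2 (0.993), Col4a1 (0.991), Dab2 (0.990) and Znrd1as (0.990). Cubn and Dab2 belong to the endocytic receptor machinery of visceral endoderm, and Col4a1 and Col4a2 encode basement membrane collagen. These values describe libraries that fall into a few groups and share WT samples. The factors were chosen with earlier results known, and the r of genes at large is not given for comparison. In the untreated TPM table alone the factors differed, with log2 differences of 0.04 ± 0.18 for Gata4, -0.02 ± 0.17 for Sox7 and -0.93 ± 0.22 for Gata6.

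Genes near the factors were read as well. Of genes starting within 500000 bases of a factor, 34 were tested in the count table, and 5 of them (14.7%) were lower in both lines, beside 10.2% of all tested genes. Gata4 and its neighbour Neil2, a DNA glycosylase gene, both fell (Neil2 by 0.78 ± 0.16 in KO7 with edgeR adjusted p = 0.00064, and fell by 0.67 ± 0.16 in KO8 with 0.0027). The nearest tested genes on either side of Hnf4a, R3hdml and Ttpal, did not fall in either line, and R3hdml rose by 1.24 ± 0.32 in KO7 (edgeR adjusted p = 0.0050). Neither Mrpl15 beside Sox17 nor Pinx1 beside Sox7 was called in either line, and no gene within that distance of Foxa2 was tested.

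In the second untreated table, Gata6 was the factor called lower among the 4 that were tested. Its TPM was 2.65 and 3.09 in WT against 0.991 and 1.05 in HMCES-KO, from 28 and 32 recovered reads against 11 and 10. Gata6 met the filter, a TPM of 1 in 2 libraries, through WT, since 1 HMCES-KO library lay below 1. With a pseudocount of 1, which shrinks the fold changes of low genes, log2 TPM of Gata6 fell by 0.93 ± 0.22 (limma adjusted p = 0.039), while 10.2% of the 13314 tested genes were called lower. That call was lost without any 1 of the 4 libraries (limma adjusted p of 0.063 to 0.20), with no filter on low TPM (0.051) and with the replicate number as a block (0.058).

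Of the 7 factors 4 passed the TPM filter there. Gata4 had 3.45 and 3.44 TPM in WT and 3.88 and 3.26 in HMCES-KO (log2 difference 0.04 ± 0.18, limma adjusted p = 0.91). Sox7 had 4.07 and 3.97 TPM in WT and 4.05 and 3.81 in HMCES-KO (-0.02 ± 0.17, limma adjusted p = 0.94). For both genes the groups overlapped, and recovered reads placed HMCES-KO at 107% of WT for Gata4 (exact 95% counting interval 76.9% to 148%) and at 100% for Sox7 (73.3% to 137%).

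Foxq1 had 2.05 and 1.43 TPM in WT and 1.03 and 0.960 in HMCES-KO, without overlap, and did not pass the test (-0.45 ± 0.25, limma adjusted p = 0.26). Like Gata6, it met the filter on low TPM through its WT libraries. The other 3 factors were too low to be tested. Hnf4a had 17 and 12 recovered reads in WT and 8 and 6 in HMCES-KO, Foxa2 had 7 and 2 against 3 and 1, and Sox17 had 9 and 3 against 7 and 3. At this depth only the Hnf4a groups stood apart among these 3, at 50.2% of WT with an exact 95% counting interval of 24.5% to 98.0%. Such a separation was common, since 39.3% of the 13314 tested genes had both HMCES-KO libraries below both WT libraries.

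Levels also differed between the WT libraries of the untreated tables, which were normalized separately. The columns of the second table carry the names CCE (WT) and K8 (HMCES-KO), and those of the count table ES, KO7 and KO8. Whether CCE and ES name different cells, and whether K8 is the line KO8, cannot be told from the labels. Gata4 averaged 13.2 TPM in WT of the count table and 3.45 in WT of the other, Foxq1 8.65 and 1.74, Gata6 8.58 and 2.87, and Sox17 2.82 and 0.445, whereas Sox7 averaged 5.04 and 4.02. The fibroblast markers summed to 39.3 to 40.9 TPM in WT and 30.2 to 38.4 in HMCES-KO of this second table, with Dcn, Lum and Postn at 0 in every library. Of 3 tested fibroblast markers, Thy1 fell by 0.56 ± 0.13 (limma adjusted p = 0.039) and Twist1 rose by 0.85 ± 0.16 (0.024). Of the endoderm proteins 14 were tested, and 4 fell and 1 rose, where 10.2% of all tested genes fell and 5.8% rose (list median -0.33, all genes -0.06). Among them Lama1, a laminin chain of the basement membrane, fell by 0.65 ± 0.08 (limma adjusted p = 0.0086) and Lrp2, the endocytic receptor megalin, fell by 0.48 ± 0.11 (0.035). Sparc, a matrix protein of parietal endoderm and many other tissues, fell by 0.43 ± 0.05 (limma adjusted p = 0.0053), and Lamc1, another laminin chain, fell by 0.35 ± 0.05 (0.010). Of these 4 genes, 3 also fell in both lines of the count table, while Lamc1 rose by 0.20 ± 0.06 in KO7 (edgeR adjusted p = 0.0069) and fell by 0.21 ± 0.06 in KO8 (0.0063). The member that rose was Apoe (0.25 ± 0.03, limma adjusted p = 0.0094). Of the 10 pluripotency factors, 6 fell and 0 rose in this second table (list median -0.28).

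After treatment for 2 h, Gata6 and Sox7 were the factors whose HMCES-KO libraries lay below both WT libraries in all 4 treated tables and in both lines. Whether that is rare among all genes was not computed. In a single table, 27.7% (LDN193189) to 32.2% (activin A) of the tested genes had both lines below WT. Gata6 had 6.48 and 8.18 TPM in WT, 4.45 in KO1 and 3.48 in KO2 under activin A. Under SB431542 it had 11.8 and 4.72 TPM in WT, 2.76 in KO1 and 0.705 in KO2, the lowest of the 16 treated libraries. The 2 WT libraries of that table differed from each other by more than the lower one differed from KO1.

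Under BMP4, Gata6 had 15.8 and 15.6 TPM in WT, 8.97 in KO1 and 6.47 in KO2. Under LDN193189 it had 12.2 and 21.0 TPM in WT, 4.03 in KO1 and 9.40 in KO2. The order of the lines was therefore not the same in each table, with KO2 lower in 3 and KO1 lower in 1. As background, over the 4 treated tables the KO1 library lay below both WT libraries for 45.4% of all pairs of gene and table. For the KO2 library the share was 42%, so a separation of 1 line in 1 table is common. Both lines together lay below both WT libraries for 27.7% (LDN193189) to 32.2% (activin A) of the genes of a table. The share of genes with both lines below WT in all 4 tables, as for Gata6 and Sox7, was not computed.

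With the knockout lines as 1 group in each table, limma called 1 of the 6 fitted factors under SB431542, where 6.73% of the tested genes were called lower. That factor was Gata6, at -1.75 ± 0.46 (adjusted p = 0.026). It was not called without the KO2 library (limma adjusted p = 0.19) or WT replicate 1 (0.22) of that table, nor with the table fitted alone (0.073). Under activin A (7.03% of genes lower), BMP4 (4.2%) and LDN193189 (1.5%), limma called 0 factors, with 3, 2 and 1 at an unadjusted p under 0.05, and edgeR on recovered reads also called 0. Gata6 itself stood at -0.75 ± 0.46 under activin A (limma adjusted p = 0.33), -0.95 ± 0.46 under BMP4 (0.24) and -1.23 ± 0.46 under LDN193189 (0.19).

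**Figure D4:**
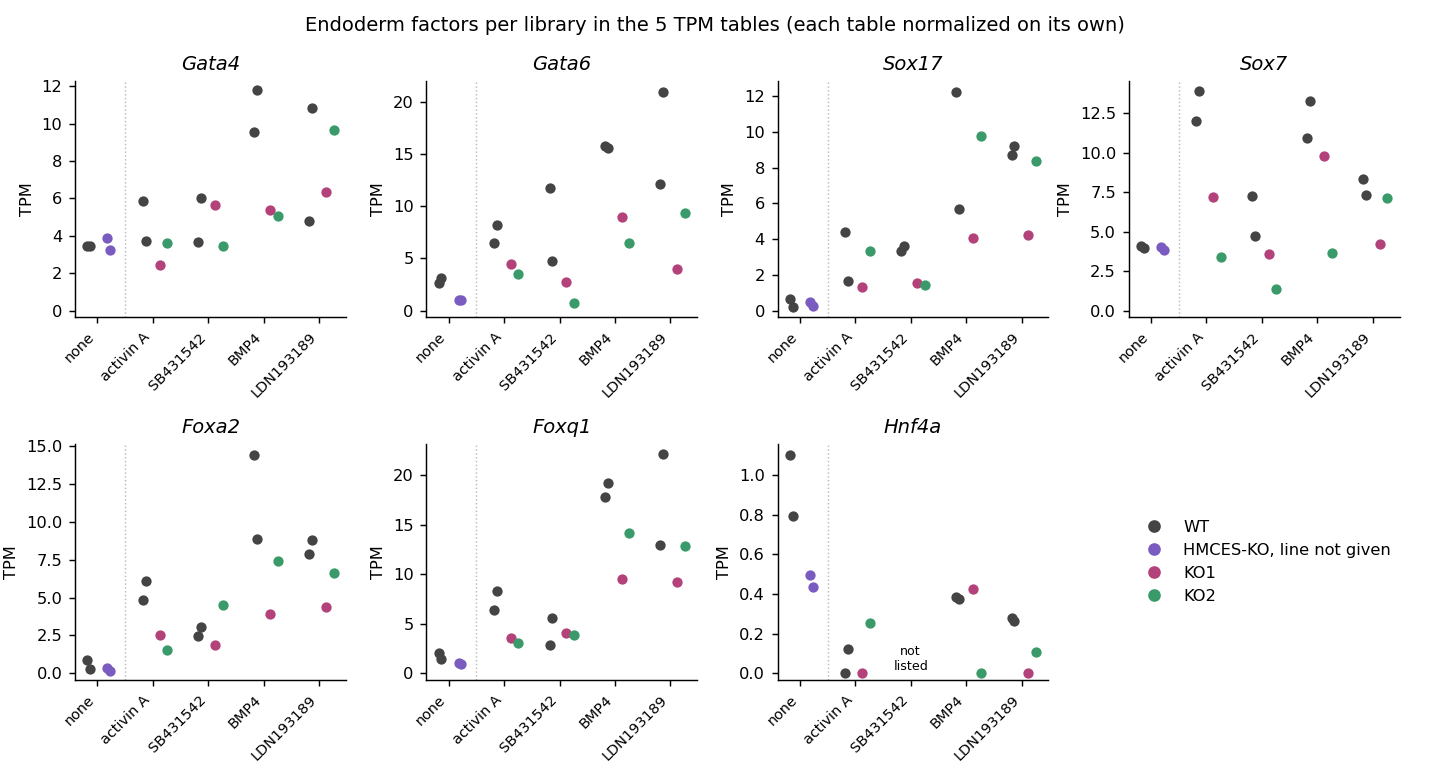
TPM of the 7 factors in each library of the 5 TPM tables; the dotted line divides the untreated from the treated tables, and each table was normalized on its own. Gata6 is lower in the HMCES-KO libraries than in WT in each table, and Hnf4a is below 0.5 TPM in all treated libraries.

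Sox7 was lower in KO2 than in KO1 in 3 of the 4 tables. Under activin A it had 12.02 and 13.9 TPM in WT, 7.18 in KO1 and 3.37 in KO2, and under SB431542 7.22 and 4.75 in WT, 3.57 in KO1 and 1.37 in KO2. Under BMP4 it had 10.9 and 13.3 TPM in WT, 9.77 in KO1 and 3.67 in KO2. Under LDN193189 it had 8.33 and 7.29 TPM in WT, 4.22 in KO1 and 7.10 in KO2. In that last table KO2 lay just below the lower WT library.

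Sox17 was lower in KO1 than in KO2 in 3 of the 4 tables, all except SB431542. With activin A, KO1 held 1.31 TPM (WT 4.37 and 1.66), and with SB431542 it held 1.55 (WT 3.36 and 3.63). With BMP4, KO1 held 4.05 TPM (WT 12.2 and 5.70), and with LDN193189 it held 4.25 (WT 8.71 and 9.23). KO2 held 3.33, 1.43, 9.75 and 8.39 TPM in the same order of tables. KO1 was below both WT libraries in 4 tables, and KO2 in 2.

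Foxa2 was lower than both WT libraries in KO1 in 4 tables and in KO2 in 3. Under activin A it had 4.85 and 6.12 TPM in WT, 2.50 in KO1 and 1.56 in KO2. Under SB431542 it had 2.46 and 3.05 TPM in WT, 1.86 in KO1 and 4.51 in KO2, the table where KO2 exceeded WT. Its KO1 library was at 33.4% of the WT mean under BMP4 and at 52.0% under LDN193189, and KO2 at 63.9% and 79.6%.

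Foxq1 was below both WT libraries in 3 tables in each line. Foxq1 had 6.36 and 8.29 TPM in WT, 3.59 in KO1 and 3.09 in KO2 under activin A, and 17.8 and 19.2 in WT, 9.496 in KO1 and 14.2 in KO2 under BMP4. Under SB431542 both lines lay between the WT libraries. Under LDN193189 Foxq1 had 12.91 and 22.1 TPM in WT, 9.20 in KO1 and 12.9 in KO2, with KO2 just below the lower WT library. Gata4 was below both WT libraries in KO1 in 2 tables and in KO2 in 3, most clearly under BMP4, with 9.57 and 11.8 TPM in WT, 5.37 in KO1 and 5.04 in KO2. Hnf4a had 0 to 4 recovered reads in each treated library where it was listed, which is too few for a comparison, and it entered no fit of the treated tables.

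Each line was then compared with WT over the 4 treated tables, with the table as a term in limma, and each library counted as its own replicate of its line. In KO1, 4 of 6 factors fell, where 20.3% of the 12608 tested genes were called lower, and in KO2 2 of 6 fell, where 16.6% were. The median over the 6 factors was -0.74 in KO1 and -0.43 in KO2, beside -0.07 and -0.02 over all tested genes. The comparisons of KO1 and KO2 share the 8 WT libraries.

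Gata6 fell in both lines. It fell by 1.07 ± 0.28 in KO1 (limma adjusted p = 0.0075) and fell by 1.27 ± 0.28 in KO2 (0.0030). In KO1 Foxa2 fell by 0.85 ± 0.23 (limma adjusted p = 0.011), Sox17 by 0.84 ± 0.23 (0.011) and Foxq1 by 0.64 ± 0.20 (0.023). In KO2 Sox7 fell by 1.20 ± 0.22 (limma adjusted p = 0.00089). Values that did not pass were Sox7 (-0.60 ± 0.22, limma adjusted p = 0.051) and Gata4 (-0.39 ± 0.24, 0.23) in KO1, and Foxq1 (-0.45 ± 0.20, 0.11), Foxa2 (-0.40 ± 0.23, 0.22), Gata4 (-0.31 ± 0.24, 0.36) and Sox17 (-0.15 ± 0.23, 0.68) in KO2.

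Some of these calls depended on 1 library. Without the KO1 library of the LDN193189 table, Gata6 (limma adjusted p = 0.055) and Foxq1 (0.083) were not called in KO1. Foxq1 was also lost without the KO1 library under BMP4 (0.093) or activin A (0.059), and Foxa2 without that under BMP4 (0.057), whereas Sox7 was called in KO1 without LDN193189 KO2 (0.0055), LDN193189 WT replicate 2 (0.041) or BMP4 KO1 (0.041). In KO2, Foxq1 was called without SB431542 WT replicate 1 (0.025).

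The difference between the lines was tested directly in the same fit, where limma called 0 of the 6 factors, beside 2.7% of genes lower and 3.89% higher in KO2. At an unadjusted p under 0.05 there were 2, Sox17 (0.69 ± 0.27, limma adjusted p = 0.14) and Sox7 (-0.61 ± 0.26, 0.19), and edgeR on recovered reads called 0. Without the LDN193189 library of KO2, Sox7 was lower in KO2 than in KO1 (-0.99 ± 0.19, limma adjusted p = 0.0058).

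**Figure D5:**
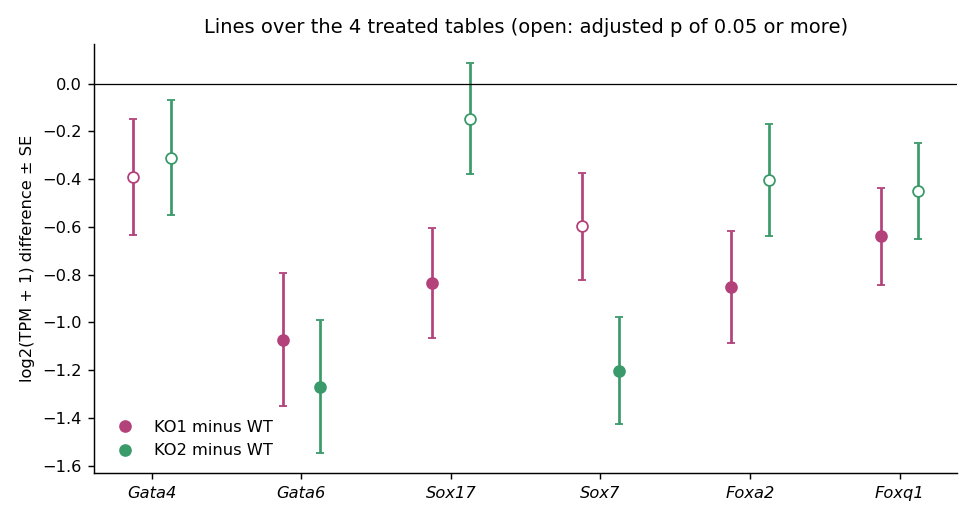
Differences from WT with standard errors on the log2(TPM + 1) scale for KO1 and KO2 over the 4 treated tables (limma with a term for the table; open points did not pass the test). Gata6 is filled in both lines, at -1.07 and -1.27, Sox7 in KO2 alone and Foxa2, Sox17 and Foxq1 in KO1 alone; limma called no difference between the lines.

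Whether the effect of the knockout differed between treatments was tested for each pair of tables. Of 36 differences of effect, over 6 factors and 6 pairs of treatments, limma called 0, with 1 at an unadjusted p under 0.05 and adjusted p from 0.69 to 1.00, and edgeR on recovered reads called 0. Over all 12608 genes these contrasts called 0%, 0.0159%, 0.0317% or 0.111% of the genes, depending on the pair. Treatment and table are the same split, so a difference between treatments could not be separated from one between tables.

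Among the treated tables, the WT means of each factor other than Sox7 were highest under BMP4 and LDN193189, given here as values without a test because each table was normalized separately. Foxq1 averaged 7.32 TPM in the WT libraries of the activin A table, 4.21 in those of SB431542, 18.5 with BMP4 and 17.5 with LDN193189. Gata6 averaged 7.33, 8.24, 15.7 and 16.6 TPM, and Sox17 3.01, 3.49, 8.97 and 8.97. Foxa2 averaged 5.49, 2.75, 11.6 and 8.36 TPM. Sox7 did not follow that order, with WT means of 13.0 TPM in the activin A table, 5.99 with SB431542, 12.1 with BMP4 and 7.81 with LDN193189.

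The related lists were also read in the treated tables. Of 19 endoderm proteins tested, 7 fell and 1 rose in KO1 (median -0.45), and 6 fell and 1 rose in KO2 (median -0.25). Over all tested genes 20.3% fell and 12.4% rose in KO1, and 16.6% fell and 12.2% rose in KO2. The summed level of that list went the other way and was above WT in each HMCES-KO library of the 4 tables, for example 2710 to 2860 TPM in WT, 3990 in KO1 and 4160 in KO2 under BMP4. Apoe was the member that rose, by 0.48 ± 0.07 in KO1 (limma adjusted p = 7.8e-05) and by 0.40 ± 0.07 in KO2 (0.00054). Of the 10 FGF-ERK genes, 5 fell and 1 rose in KO1 (median -0.35), and 5 fell and 2 rose in KO2 (median -0.21). Their summed level was below WT in each HMCES-KO library, for example 2230 to 2290 TPM in WT, 1600 in KO1 and 1690 in KO2 under activin A. Of the 10 pluripotency factors, 3 fell and 3 rose in KO1 (median 0.01), and 6 fell and 1 rose in KO2 (median -0.36). Of the 10 other endoderm factors tested, 0 fell in either line by limma, Prdm1 rose in both (0.77 ± 0.24 in KO1, limma adjusted p = 0.020, and 0.86 ± 0.24 in KO2, 0.012), and Mixl1 rose in KO2 (1.02 ± 0.29, 0.016). Fibroblast markers summed to 50.5 to 73.7 TPM in the WT libraries of the 4 tables and to 39.5 to 58.3 TPM in the HMCES-KO libraries, each of which lay below both WT libraries of its table. By gene, 3 fibroblast markers were tested, with 1 higher and 1 lower in KO1, and 0 higher and 1 lower in KO2. Neuroectoderm markers summed to 734 to 1040 TPM in WT and to 829 to 1350 TPM in HMCES-KO, where each library lay above both WT libraries of its table. By gene, 4 neuroectoderm markers were tested, with 2 higher and 1 lower in KO1, and 3 higher and 0 lower in KO2. The part of either list in the levels of the 7 factors was not tested.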

How the data were processed

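RNA was sequenced from 26 libraries. The deposited count table holds the authors' counts of read pairs per gene over exons, made with featureCounts 2.0.1 on mm10 RefSeq genes, per the file headers. The other 5 deposited tables hold TPM computed by the authors, per the labels, and each was normalized on its own. Per the submitters' processing notes, reads were checked with FastQC 0.11.5 and handled with Bowtie2 2.3.3 and SAMtools 1.9, and DESeq2 is named too. For the strand setting of the counting, no value is given in the sources used here. Columns were matched to samples by their names.

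The count table was tested by edgeR 4.0.16 as 3 groups of 2 libraries, with TMM scaling, its expression filter and the quasi-likelihood test. For TPM, limma 3.58.1 with a trended prior was run on log2(TPM + 1), where 2 or more libraries had to reach a TPM of 1. All 16 treated libraries entered 1 fit over the 12928 genes that the 4 tables share, before that filter. Adjustment was by Benjamini-Hochberg over all genes of a contrast, and a call means an adjusted p under 0.05. Values after ± are standard errors. Whole reads were recovered from TPM for an edgeR alternative and for counting intervals: of the untreated values above 0, 100% were whole within 0.01 reads, and 99.7% of treated genes could be solved. For treated genes the unit of 1 read was searched on each gene's own values. That search partly fixes that values come out whole, so the share solved is no check of the treated reads. The fits were tested on simulated data. Alternatives were DESeq2 1.42.0, other scalings, filters, pseudocounts and groupings, the replicate number as a block, and each library left out in turn.

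The members and lists were chosen with earlier results of these data known. Named genes are the 7 factors, up to 4 genes per list with the largest fold change among those called in KO7 and KO8, list genes also called in the untreated TPM table, the 5 genes most like the factors in profile (mean of at least 1 CPM), next neighbours, and Hmces. A gene that this rule names is not reported here. Foxh1, Apoe, Eomes, Mixl1, R3hdml, Ttpal and the treated values of Prdm1 were named after their values were seen. Since separate cultures are not named in the labels, the p-values may reflect technical spread alone. Replicate numbers did not pair the samples: deviations of same-numbered libraries correlated between -0.0406 and 0.0318.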

Additional observations from a re-analysis of the deposited data

Results flagged for a closer look

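Differences between the knockout lines of the count table stood out for 4 of the 7 factors, by a direct test of KO8 against KO7 with edgeR. The log2 difference was -3.10 for Sox17, where the KO8 libraries had 2 and 2 reads and the KO7 libraries 26 and 16. It was -2.34 for Foxq1, with 4 and 5 reads against 35 and 19. It was -2.0 for Foxa2, with 2 and 3 reads against 13 and 11, and -0.93 for Gata6, with 22 and 18 reads against 57 and 32. In each case both KO8 libraries were below both KO7 libraries. Residual Hmces RNA also differed between the lines, at 38.5% of the WT mean in KO7 and 25.7% in KO8, and its part in these differences was not tested.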

How the results depend on the processing

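Among the counts of factors called lower, some moved by more than 1.5 times. With the 4 HMCES-KO libraries as 1 group, chosen after seeing the data, edgeR called 4 factors against WT rather than the 7 of KO8. DESeq2 called 2 rather than 4 lower in KO8 than in KO7, and the count ran from 2 to 4 with 1 library left out. In the untreated TPM table the 1 call became 0 with no filter, 0 with the replicate block (Gata6 limma adjusted p = 0.058) and 0 without any 1 library. Under SB431542 the count was 2 with 12 groups, 0 with the table fitted alone and 0 to 1 with 1 library left out (0 without KO2 or WT replicate 1). Under activin A it was 2 with 12 groups and 1 (Foxq1) with the replicate block, and under BMP4 1 with 12 groups, against 0. The count in KO1 ran from 2 (without LDN193189 KO1) to 5 (without LDN193189 KO2), against 4, and that of KO2 against KO1 reached 1 (without LDN193189 KO2), against 0. The replicate block changed no other call. Uncalled values crossed 0 when 1 library was left out: Gata4 (-0.062 to 0.14) and Sox7 (-0.060 to 0.010) in untreated TPM, Foxa2 (-0.39 to 0.56), Foxq1 (-0.42 to 0.36) and Gata4 (-0.37 to 0.22) under SB431542, Gata4 (-0.42 to 0.61) under LDN193189, Sox17 under BMP4 (-0.90 to 0.19) and activin A (-0.76 to 0.25), Sox17 in KO2 (-0.27 to 0.10), and Gata4 (-0.12 to 0.29) and Gata6 (-0.49 to 0.14) between KO2 and KO1. Sox7 in untreated TPM was also at 0.027 with edgeR on recovered reads. The cause was not tested, except that fewer libraries leave fewer degrees of freedom. Depth limits the factors with under 20 reads per library most.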
